A study of Macaca mulatta with 5 samples.

Results

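NMDA receptor subunit transcripts were followed across the cell classes of macaque claustrum tissue, the thin sheet of grey matter between insular cortex and striatum. The 6 subunit genes were GRIN1, GRIN2A, GRIN2B, GRIN2C, GRIN2D and GRIN3A, taken by exact symbol from the gene tables of the 5 count matrices. They are 6 of 21761 genes, and each of the 6 symbols was found once in every matrix. Single nuclei came from frozen claustrum of 2 healthy, untreated male rhesus macaques. There were 2 libraries from the 17-month and 3 from the 18-month macaque, all made with the 10x Genomics 3' V3 kit. Because each age is 1 animal, age and animal cannot be told apart. The labels name no tissue pieces or other sources within an animal, so p-values measure the spread between libraries, which may be technical.

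NMDA receptors are glutamate-gated calcium channels that open only when glutamate and a co-agonist, glycine or D-serine, are bound and depolarisation has lifted a magnesium block. GRIN1 encodes GluN1, the subunit that all conventional NMDA receptors need and that binds the co-agonist. The GRIN2 genes encode the glutamate-binding GluN2 subunits, which set the kinetics and the strength of the magnesium block. In the forebrain, GluN2B dominates early in life and GluN2A rises with maturation, while GluN2C and GluN2D form receptors with weak magnesium block. GRIN3A encodes GluN3A, a glycine-binding subunit that lowers calcium permeability.

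The 5 matrices held 40005 barcodes, with 47512670 to 70896967 unique molecular identifiers (UMIs) per library and medians of 2976 to 3485 UMIs per nucleus. After filtering, 37091 nuclei remained. No pair of libraries shared more than 34 barcodes. The nuclei fell into 8529 excitatory, 2692 inhibitory and 1863 striatal projection-like neurons, 14493 oligodendrocytes, 2052 oligodendrocyte precursor cells (OPCs), 1199 astrocytes, 2828 microglia and 587 endothelial cells. Of the other nuclei, 148 were committed oligodendrocyte precursors and 167 mural cells or fibroblasts. The rest stayed unnamed and outside the class comparisons, among them 1810 nuclei of a cluster with low UMI counts and 346 of a cluster between the striatal and inhibitory markers. Among excitatory nuclei, 5149 were claustrum-like, with 250.3 CPM of NR4A2, 995 CPM of SYNPR and 199.6 CPM of GNB4, all taken as claustrum markers. The striatal projection-like nuclei, with 9962 CPM of PDE10A and 369 CPM of RARB, are not claustral neurons, and their number ranged from 123 to 774 per library. Class names ending in "-like" rest on marker genes, and the 6 subunit genes were left out of the clustering.

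A level here is the sum of UMIs of a gene over the nuclei of a class in 1 library, scaled to 1000000 UMIs of that sum (CPM), and ± gives the SD over libraries (n = 5 unless another number is given). Values per library are given as those of the 17-month animal, in library order, followed by those of the 18-month animal. Levels of 1 gene were compared between classes. Different subunits were not ranked against each other, because gene lengths were not used here. Differences between classes were tested with edgeR's quasi-likelihood test with the library as a block. A gene was called at a Benjamini-Hochberg adjusted p under 0.05 over all genes tested and a log2 fold change of 1 or more in size. The genes used for clustering, picked as variable between nuclei, and the marker genes were left out of these tests and of the interaction fits. Shares of all genes called there are shares of the genes that remained.

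GRIN1, the obligatory subunit, was a neuronal transcript with a narrow range among neurons. In excitatory neurons it stood at 86.1 and 93.1 CPM at 17 months and 71.7, 77.1 and 67.6 CPM at 18 months. Inhibitory neurons had 61.0 and 64.0 CPM at 17 months and 62.0, 63.8 and 64.4 CPM at 18 months, and striatal projection-like neurons had 100.1 and 105 CPM at 17 months and 94.2, 92.7 and 92.7 CPM at 18 months. Every striatal value lay above every inhibitory value, with excitatory neurons between the 2 means. The named neuronal subclasses ran from 98.7 ± 8.15 CPM (n = 4) in D1-like striatal neurons down to 56.6 ± 5.08 CPM in VIP-like interneurons. In the D1-like neurons the markers TAC1, EBF1 and PDYN stood at 301, 249 and 26.9 CPM. DRD1 itself stood at 10.1 CPM, with 0 in the lowest library, ISL1 at 4.28 CPM and CHRM4 at 0.348 CPM. Between the D2-like neurons and the VIP-like interneurons, each subclass overlapped its neighbour in that order. Glial means lay between 2.28 CPM in astrocytes and 7.33 CPM in microglia, and 1 library had no GRIN1 UMI in astrocytes.

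**Figure D1:**
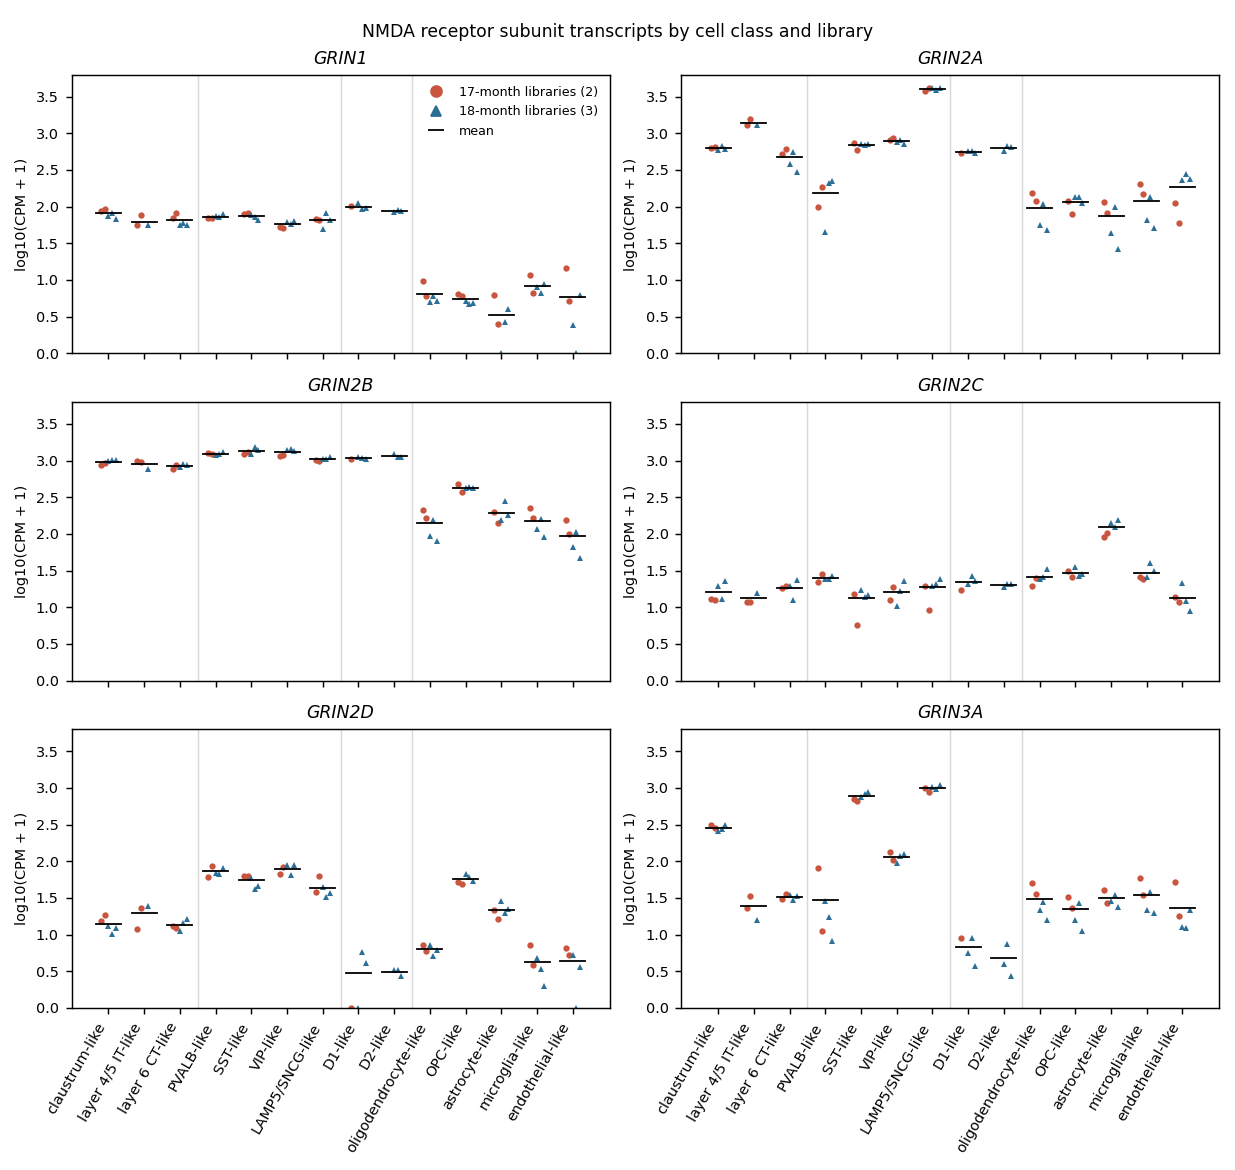
Levels of the 6 subunit genes in 14 named classes, as log10(CPM + 1) on the vertical axis. Circles are the 2 libraries of the 17-month animal, triangles the 3 libraries of the 18-month animal and bars the mean. GRIN1 and GRIN2B separate neurons from glia, GRIN2C peaks in astrocytes, and GRIN3A spans from about 1000 CPM in LAMP5/SNCG-like interneurons to under 10 CPM in the striatal types.

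GRIN2A varied widely between neuron types, and the highest and the lowest neuronal subclass were both interneurons. LAMP5/SNCG-like interneurons, which include neurogliaform cells, had 3732 and 4084 CPM at 17 months and 4079, 3846 and 4144 CPM at 18 months. The PVALB-like interneurons were named from SLIT2, MYO5B, SULF1 and TAC1 (961, 295, 242 and 55.9 CPM), while PVALB itself stood at 5.43 CPM, with 0 in 1 library, and UNC5B at 3.40 CPM. For GRIN2A they had 96.6 and 182 CPM at 17 months and 43.7, 209.8 and 223 CPM at 18 months. The lowest LAMP5/SNCG-like library was therefore more than 10 times the highest PVALB-like library. SST-like interneurons had 684 ± 60.6 CPM and VIP-like interneurons 788 ± 58.6 CPM, and these neighbours overlapped. Claustrum-like neurons had 619 and 643 CPM at 17 months and 582, 659.9 and 612 CPM at 18 months, next to the 626 ± 49.7 CPM of D2-like (n = 3) and above the 555 ± 20.1 CPM of D1-like (n = 4) striatal neurons. Layer 4/5 IT-like excitatory neurons, found at 20 or more nuclei in 3 libraries, had 1366 ± 153 CPM (n = 3), and layer 6 CT-like neurons had 469.5 ± 129 CPM. Of the 809 layer 6 CT-like nuclei, 567 were excitatory cluster 7. That cluster scored 0.79 for the layer 6 CT markers and 0.80 for layer 5 ET markers. It was named from its 10 leading genes, which held 4 layer 6 CT markers.

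GRIN2B was close to level across neurons. Excitatory neurons had 901 and 943 CPM at 17 months and 989, 1023 and 1019.5 CPM at 18 months. Inhibitory neurons were higher in every library, at 1170.3 and 1189 CPM at 17 months and 1213, 1288 and 1287 CPM at 18 months, and striatal projection-like neurons had 1119.8 ± 40.4 CPM. All neuronal subclass means lay between 838 CPM in layer 6 CT-like and 1339 CPM in SST-like neurons, with each neighbour in the order overlapping the next. Below them came OPCs with 477 and 372 CPM at 17 months and 426, 429 and 422 CPM at 18 months, which overlapped no other class. Astrocytes had 190.3 ± 53.3 CPM, microglia 151 ± 51.9 CPM, oligodendrocytes 139 ± 53.6 CPM and endothelial cells 93.0 ± 40.7 CPM.

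GRIN2C was an astrocyte transcript in this tissue. Astrocytes had 90.9 and 102 CPM at 17 months and 139, 124 and 151 CPM at 18 months. The lowest astrocyte library exceeded the highest library of every other named class. Microglia, OPCs and oligodendrocytes had 28.4 ± 6.29, 28.4 ± 4.03 and 24.7 ± 4.93 CPM, and neuronal subclass means lay between 12.2 and 24.1 CPM.

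GRIN2D marked interneurons and OPCs. Inhibitory neurons had 59.4 and 68.9 CPM at 17 months and 62.4, 53.5 and 60.4 CPM at 18 months, and excitatory neurons had 11.8 and 15.3 CPM at 17 months and 11.4, 10.4 and 10.9 CPM at 18 months. OPCs, at 50.8 and 48.3 CPM at 17 months and 65.4, 60.8 and 53.3 CPM at 18 months, were in the range of the interneuron subclasses, whose means ran from 42.4 CPM (LAMP5/SNCG-like) to 77.3 CPM (VIP-like). Striatal projection-like neurons, which are GABAergic like the interneurons, had 2.67 and 1.82 CPM at 17 months and 2.34, 3.27 and 2.98 CPM at 18 months. Astrocytes stood between these groups at 20.8 ± 4.63 CPM, while oligodendrocytes had 5.30 ± 0.859 CPM and microglia 3.23 ± 1.90 CPM.

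GRIN3A separated subtypes within the excitatory neurons and within the interneurons. Claustrum-like neurons had 307 and 280.3 CPM at 17 months and 261, 274 and 308 CPM at 18 months, against 114 and 122 CPM at 17 months and 101, 84.3 and 89.4 CPM at 18 months in all other excitatory neurons. The layer 6 CT-like and layer 4/5 IT-like neurons among those others had 31.6 ± 2.53 CPM and 23.1 ± 9.04 CPM (n = 3), in the range of glia. LAMP5/SNCG-like interneurons had 991 and 867 CPM at 17 months and 1036, 948 and 1105 CPM at 18 months, and SST-like interneurons, which include Martinotti cells, had 693 and 665 CPM at 17 months and 751, 826 and 888 CPM at 18 months. VIP-like interneurons had 114 ± 16.5 CPM. PVALB-like interneurons had 80.5 and 10.1 CPM at 17 months and 27.8, 16.2 and 7.09 CPM at 18 months, so the first 17-month library stood well above the other 4. Striatal projection-like neurons were lowest, with 11.6 and 19.4 CPM at 17 months and 3.74, 6.07 and 4.40 CPM at 18 months.

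Excitatory and inhibitory neurons differed by the fold threshold in 1 of 6 subunit genes, against a background of 14.2% of the 10590 genes tested. That gene was GRIN2D, lower in excitatory neurons by 2.28 log2 units (SE 0.064, adjusted p = 6.9e-11, edgeR) and lower in 5 of 5 libraries. Of the genes tested, 6.72% were called lower. GRIN2A and GRIN3A were also lower in excitatory neurons in 5 of 5 libraries, at -0.73 (SE 0.061, adjusted p = 7.5e-07) and -0.70 (SE 0.053, adjusted p = 3.1e-07), short of the fold threshold. GRIN1 was higher in excitatory neurons by 0.39 and GRIN2B lower by 0.26, also in 5 of 5 libraries, with adjusted p-values of 0.00019 and 0.00023. For GRIN2C the difference was -0.16 with an adjusted p of 0.24.

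Claustrum-like neurons differed from all other excitatory neurons in 1 of 6 subunit genes, with 7.01% of all genes called and 3.18% called higher. GRIN3A was 1.50 log2 units higher (SE 0.092, adjusted p = 1.8e-05, edgeR), in 5 of 5 libraries. Against only the excitatory clusters named after cortical layers, the difference was 3.18. GRIN2A was -0.34 (SE 0.050, adjusted p = 0.00031) and GRIN2C -0.32 (adjusted p = 0.007), both lower in 5 of 5 libraries and under the fold threshold. Against the layer-named clusters GRIN2A changed sign, to 0.12. GRIN1, GRIN2B and GRIN2D differed by 0.05, -0.05 and 0.28, with adjusted p-values of 0.38, 0.44 and 0.19.

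Within the claustrum-like neurons, GRIN2A separated clusters that GRIN3A did not. Of the 5 claustrum-like clusters, cluster 1 had 835 ± 39.5 CPM of GRIN2A and cluster 6 had 804 ± 72.1 CPM. Cluster 4 had 496 ± 38.4 CPM, cluster 2 275 ± 72.1 CPM and cluster 11 327 ± 43.1 CPM (n = 4). Every library of clusters 1 and 6 lay above every library of clusters 2, 4 and 11. Leading genes of cluster 1 were VWC2 and HCRTR2, of cluster 2 GRIK1 and TFAP2D, and of cluster 4 SLC17A8 and NR2F2, while cluster 11 was led by the activity-regulated genes NPAS4 and FOS. GRIN3A means in the 5 clusters ran from 201 to 331 CPM, and GRIN2B means from 844 to 1156 CPM. Outside the claustrum-like clusters, unnamed clusters 12, 13 and 14 had GRIN2A means of 1440.4, 1337 and 1016 CPM (n = 2 each). Cluster 13 had a GRIN3A mean of 205 CPM, in the range of the claustrum-like clusters, and the unnamed clusters 3 and 5 had 134 and 127 CPM. Clusters are a description, with no test.

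**Figure D2:**
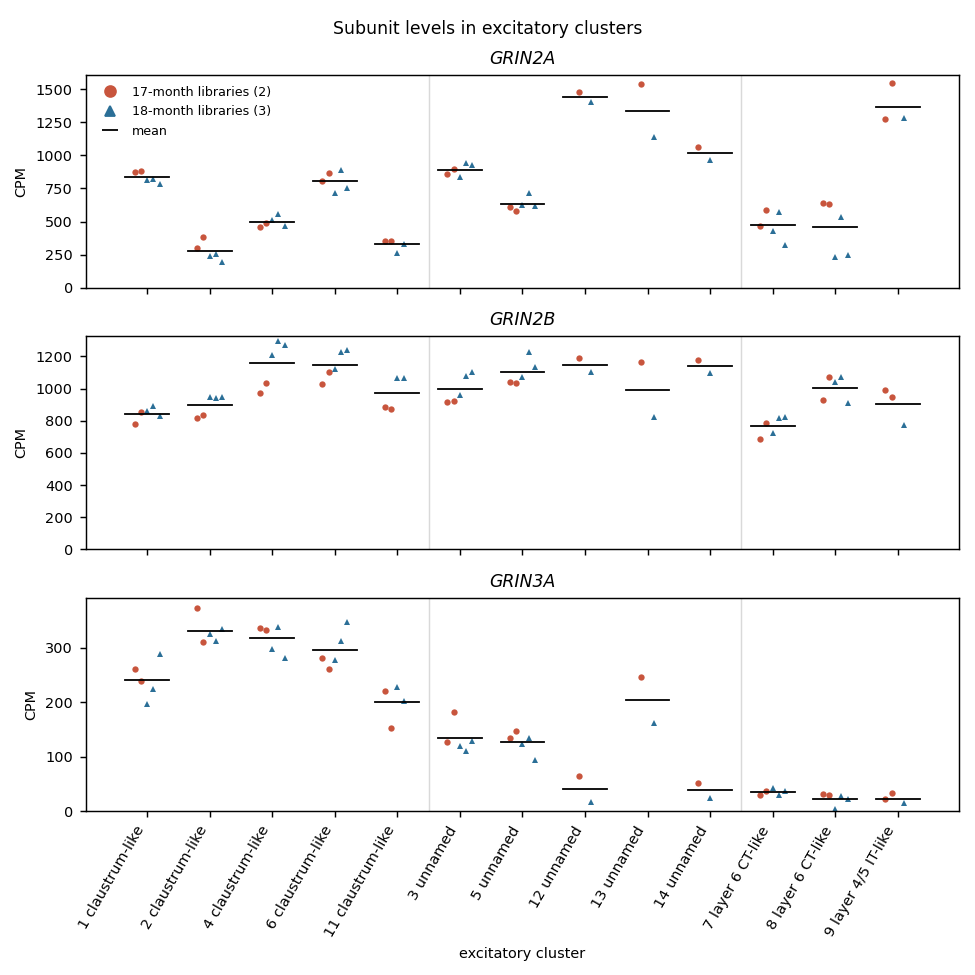
GRIN2A, GRIN2B and GRIN3A in CPM in each excitatory cluster, with 17-month libraries as circles, 18-month libraries as triangles and the mean as a bar. GRIN3A is high in the 5 claustrum-like clusters on the left, whereas GRIN2A ranges there from 275 to 835 CPM.

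Among interneurons, LAMP5/SNCG-like nuclei had 2 of 6 subunit genes called, with 7.41% of genes called in all and 3.34% called higher. Each subclass was set against the mean of the log levels of the other 3. GRIN2A was 3.26 log2 units higher (SE 0.19, adjusted p = 9.9e-09, edgeR) and GRIN3A 2.89 higher (SE 0.20, adjusted p = 8.7e-08), both in 5 of 5 libraries. PVALB-like nuclei also had 2 of 6 called, against 6.73% of genes and 3.63% lower. GRIN2A was lower by 3.19 (SE 0.26, adjusted p = 4.8e-07) and GRIN3A by 3.92 (SE 0.31, adjusted p = 2.5e-07). Without the first 17-month library, in which GRIN3A was highest, the PVALB-like difference in GRIN3A was -4.74. GRIN3A was the 1 gene of 6 called in SST-like nuclei (5.28% of genes called, 2.93% higher), at 2.37 (SE 0.20, adjusted p = 8.9e-07). It was also the 1 of 6 called in VIP-like nuclei (5.45% of genes, 2.1% lower), at -1.34 (SE 0.26, adjusted p = 0.0014). With classes rebuilt from the genes not drawn for clustering the VIP-like value was -2.06.

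No subunit gene was called between interneurons with markers of the medial ganglionic eminence (MGE-like, 1345 nuclei) and those of the caudal one (CGE-like, 1252 nuclei), where 4.9% of genes were called. In edgeR 3 of the 6 passed an unadjusted p under 0.05, and DESeq2 also called 0. GRIN2A was -0.54 (SE 0.059, adjusted p = 1.4e-07, edgeR), lower in MGE-like nuclei in 5 of 5 libraries. GRIN2C was 0.49 (adjusted p = 0.014) and GRIN3A 0.29 (adjusted p = 6.6e-05), both higher in 5 of 5 libraries. The sizes for GRIN2A and GRIN3A depended on 1 cluster. Inhibitory cluster 3 fell in the MGE-like division but stayed unnamed, with LAMP5, SV2C and NTNG1 among its leading genes, and it had 3382 ± 176 CPM of GRIN2A and 782 ± 43.0 CPM of GRIN3A, next to the LAMP5/SNCG-like levels. Without it, a choice made after seeing the data, GRIN2A was -1.90 and called, GRIN3A was -0.13 and GRIN2C stayed at 0.51. Within the VIP-like class, cluster 2 had 444 ± 74.7 CPM of GRIN2A, cluster 6 had 1317 ± 197 CPM and cluster 7 had 919 ± 159 CPM. The SST-like class held cluster 5 with 625 ± 135 CPM of GRIN3A and cluster 10 with 1228 ± 51.2 CPM (n = 3).

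Striatal projection-like neurons differed from excitatory neurons in 2 of 6 subunit genes, with 20.2% of genes called and 11.7% lower. GRIN3A was lower by 4.77 log2 units (SE 0.33, adjusted p = 7.9e-05, edgeR) and GRIN2D by 1.84 (SE 0.17, adjusted p = 2.5e-06), each in 5 of 5 libraries. Against inhibitory neurons the same 2 of 6 were called (20.7% of genes called, 11.2% lower). GRIN3A was lower by 5.47 (SE 0.34, adjusted p = 7.1e-05) and GRIN2D by 4.10 (SE 0.13, adjusted p = 6.2e-11). With likely doublets kept, GRIN3A was -3.69 against excitatory and -4.36 against inhibitory neurons. GRIN1 was 0.46 and 0.87 log2 units higher than in the excitatory and inhibitory neurons (adjusted p = 9.9e-05 and 6.4e-08), in 5 of 5 libraries both times and under the fold threshold. GRIN2A was -0.70 against inhibitory neurons (adjusted p = 1.6e-06) and 0.01 against excitatory neurons (adjusted p = 0.92), where its CPM was lower in 5 of 5 libraries (622 against 689 CPM). GRIN2B was 0.35 against excitatory neurons (adjusted p = 0.00026). Against inhibitory neurons it was 0.12 (adjusted p = 0.086) although its CPM was lower in 5 of 5 libraries, since the fit scales libraries by TMM factors.

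D1-like and D2-like striatal neurons could be compared in the 3 libraries of the 18-month animal. None of the 5 subunit genes tested was called, with 1.03% of genes called, and GRIN2D was too low to be tested. At an unadjusted p under 0.05 with no fold threshold, 1 of the 5 passed in edgeR and DESeq2 called 0. The 1 was GRIN2A at -0.19 (SE 0.058, adjusted p = 0.045). The other 4 differed by -0.09 (GRIN2B) to 0.41 (GRIN3A).

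**Figure D3:**
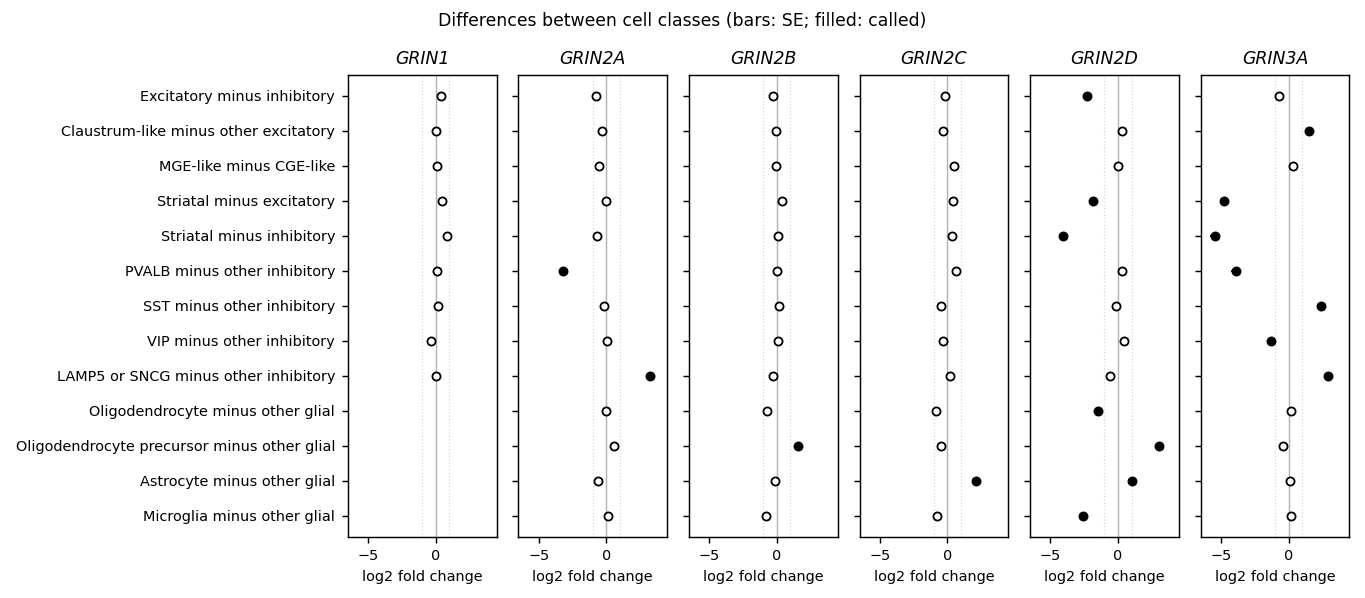
Log2 fold change of each subunit gene in the 13 class comparisons with 5 libraries, with bars for the SE (shorter than the symbols in most places), dotted lines at the fold threshold and filled symbols for called genes. GRIN2D and GRIN3A carry most of the called differences, GRIN2A is called in the LAMP5/SNCG-like and PVALB-like interneurons, and GRIN1 and GRIN2B stay inside the dotted lines among neurons.

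The GRIN2A to GRIN2B ratio was taken per library on the log2 scale and compared between classes only, since its 0 point has no meaning for receptor make-up without gene lengths. It was highest in LAMP5/SNCG-like interneurons, with 1.89 and 2.06 in the 17-month and 1.94, 1.87 and 1.90 in the 18-month libraries. Inhibitory cluster 3 followed at 1.73 ± 0.105, and layer 4/5 IT-like neurons had 0.60 ± 0.203 (n = 3). Claustrum-like neurons had -0.49 and -0.53 in the 17-month and -0.78, -0.63 and -0.71 in the 18-month libraries, and the other excitatory neurons had -0.34 ± 0.191. Striatal projection-like neurons had -0.85 ± 0.058, the tightest of the large classes. At the low end, OPCs had -1.91 ± 0.239 and PVALB-like interneurons -3.72 and -2.75 in the 17-month and -4.75, -2.56 and -2.54 in the 18-month libraries. Excitatory clusters ran from -1.75 ± 0.463 in claustrum-like cluster 2 to 0.60 in cluster 9, the layer 4/5 IT-like neurons (n = 3). Between them, claustrum-like cluster 1 had -0.02 and unnamed cluster 13 had 0.43 (n = 2).

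In 6 pairs of classes with 5 libraries, the ratio differed in the same direction in 5 of 5 libraries. The ratio was lower in excitatory than in inhibitory neurons by a mean of -0.47 (SD 0.175, from -0.74 to -0.29). In claustrum-like against other excitatory neurons the difference was -0.29 (SD 0.143), and in MGE-like against CGE-like interneurons -0.48 (SD 0.234). Striatal neurons differed from excitatory neurons by -0.34 (SD 0.106) and from inhibitory neurons by -0.81 (SD 0.204), and OPCs from excitatory neurons by -1.41 (SD 0.344). Each of the 6 gave p = 0.062 in the exact two-sided sign-flip permutation test, the smallest p that 5 libraries allow, and 0.135 after adjustment over the 13 ratio comparisons. None of them therefore passed 0.05. D1-like and D2-like neurons differed by -0.08 (SD 0.198, n = 3, exact permutation p = 0.5), with 2 of 3 libraries in the direction of the mean.

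**Figure D4:**
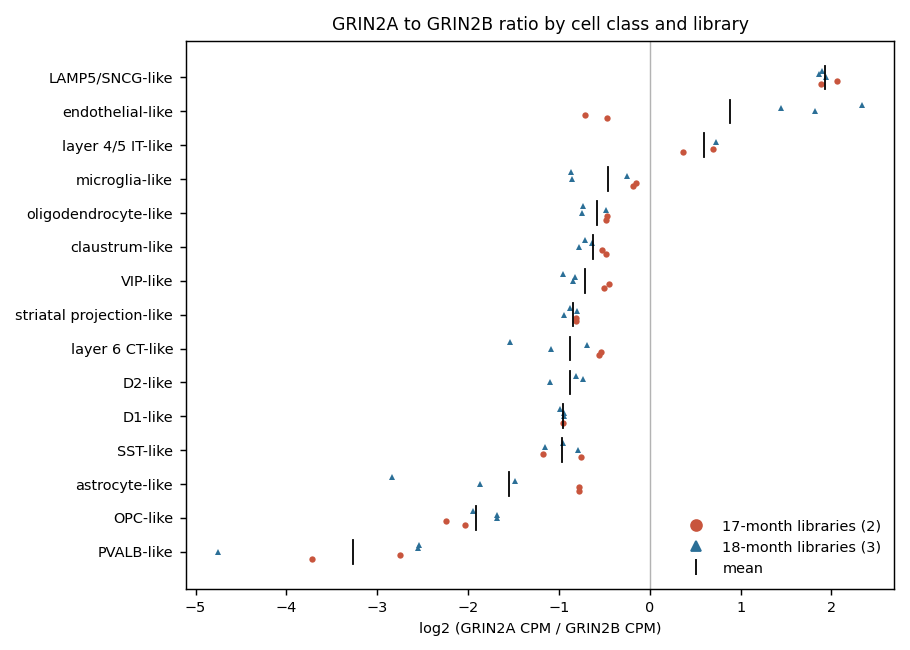
Log2 of GRIN2A CPM over GRIN2B CPM (horizontal axis) by cell class, with 1 symbol per library and a bar at the mean; the grey line marks equal CPM. LAMP5/SNCG-like interneurons are at the top and PVALB-like interneurons at the bottom, and the endothelial libraries of the 2 animals lie on either side of the line.

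Shares of single nuclei describe the same contrast from the same UMIs, so they are no further support for it. They pool the nuclei of all libraries. Each nucleus with at least 2000 UMIs was thinned to 2000, because excitatory nuclei had a median of 15879 UMIs and microglia 2036. This left out 2 of 8529 excitatory nuclei, 4172 of 14493 oligodendrocytes and 1344 of 2828 microglia. In LAMP5/SNCG-like interneurons, 88.1% of nuclei then held a UMI of both GRIN2A and GRIN2B and 2.03% held GRIN2B only. In PVALB-like interneurons, 14.2% held both and 74.1% held GRIN2B only. Between libraries, the PVALB-like share with a GRIN2A UMI ran from 5.66% to 26.9% at this depth. Claustrum-like neurons were between them, with 49.2% holding both, 11.0% GRIN2A only and 32.6% GRIN2B only. In OPCs 43.3% held GRIN2B only and 8.19% GRIN2A only. Microglia, taken as a class that should lack these neuronal receptors, had 5.32% with both and 61.7% with neither.

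**Figure D5:**
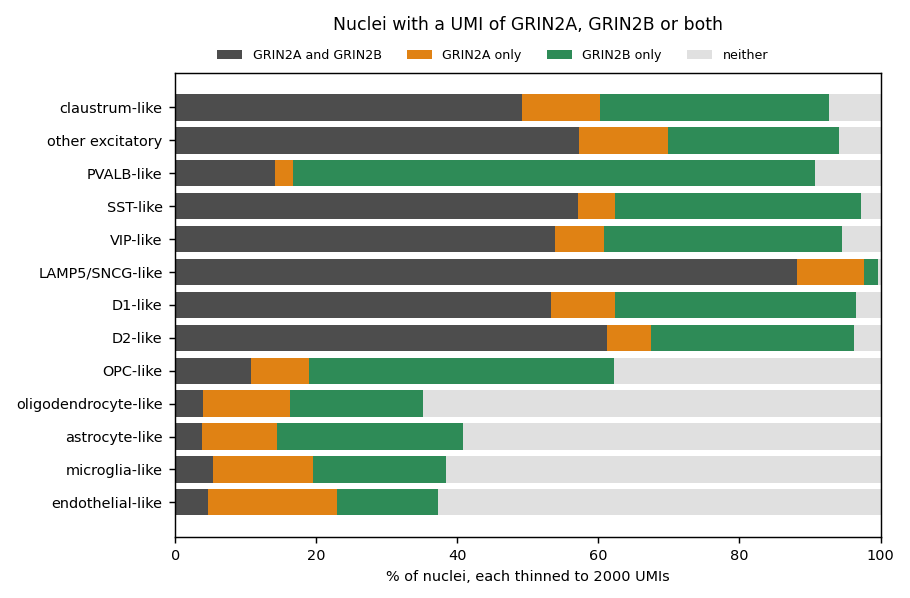
Percent of nuclei (horizontal axis) with at least 1 UMI of GRIN2A and GRIN2B, of 1 of them or of neither, by cell class, in nuclei with at least 2000 UMIs after thinning each to 2000. Most LAMP5/SNCG-like nuclei hold both (88.1%), most PVALB-like nuclei hold GRIN2B only (74.1%), and most glial nuclei hold neither except in OPCs.

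At 1000 UMIs per nucleus, GRIN3A was seen in 23.9 ± 2.48% of claustrum-like and 8.72 ± 1.52% of other excitatory nuclei. Without thinning the shares were 91.5% and 53.6%, at medians of 16377 and 15126 UMIs. The microglial share was 3.31 ± 0.995% (6.54% unthinned, median 2036 UMIs). The means of 0.845 ± 0.542% in striatal and 2.85 ± 3.55% in PVALB-like nuclei lay below it (7.03% and 14.8% unthinned). These nuclei had medians of 13728 and 9868.5 UMIs, so the microglial share does not set the background in them. GRIN2A was seen in 91.4 ± 3.66% of LAMP5/SNCG-like nuclei and in 11.6 ± 8.05% of PVALB-like nuclei (98.3% and 39.4% unthinned), against 10.6 ± 5.53% of microglia (21.5% unthinned). The thinned PVALB-like share was within 1 SD of the microglial share, with the same limit of unlike depth. GRIN2D was seen in 6.37 ± 1.73% of inhibitory, 4.86 ± 1.21% of OPC and 1.27 ± 0.219% of excitatory nuclei, against 0.243 ± 0.197% of microglia. GRIN2C was seen in 12.1 ± 4.76% of astrocytes (35.1% unthinned, median 3747 UMIs) and 2.56 ± 0.932% of microglia (5.59% unthinned).

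Glial levels have to be read beside neuronal RNA in the same sums. The 11 transcripts listed as absent from glia, such as SNAP25, SYT1, SLC17A7 and GAD1, summed to 2697 and 1969 CPM in the 17-month and 1995, 1908 and 1509 CPM in the 18-month libraries of oligodendrocytes. In astrocytes they summed to 1946 and 1309 and 1473, 1250.4 and 1078 CPM, in OPCs to 2735 and 2075 and 2159.5, 2099.8 and 1856 CPM and in microglia to 2999.8 and 2183 and 2358, 2212 and 1792 CPM, against 7874 to 8452 CPM in excitatory neurons. Per gene, oligodendrocytes had 3.19% to 182% (median 52.7%) of the highest neuronal class, and 2 of the 11, NEFL and SYT4, were above it. The first 17-month library was highest in each of these 4 classes, and it was also highest for GRIN2A, GRIN2B and GRIN3A in oligodendrocytes and microglia. In oligodendrocytes GRIN2A was 151 and 117 CPM in the 17-month and 55.4, 109 and 47.4 CPM in the 18-month libraries, and in microglia 199.6 and 147 and 63.7, 134 and 49.9 CPM. The part of free neuronal RNA in these glial levels was not tested.

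OPCs, which receive synapses from neurons, had 2 of 5 tested subunit genes called against the mean of the other 3 large glial classes (16.7% of genes called, 9.6% higher). GRIN1 was below the count filter of this fit. GRIN2D was 3.07 log2 units higher (SE 0.13, adjusted p = 8.5e-16, edgeR) and GRIN2B 1.58 higher (SE 0.14, adjusted p = 4.4e-08), in 5 of 5 libraries each. GRIN2C was -0.51 (adjusted p = 0.0013) and lower in 5 of 5 libraries, GRIN3A was -0.44 (adjusted p = 0.0066) and GRIN2A was 0.55 (adjusted p = 0.05), all under the fold threshold.

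Astrocytes had 2 of 5 called (19.1% of genes called, 10.9% higher). GRIN2C was 2.13 higher (SE 0.11, adjusted p = 2.1e-14, edgeR) in 5 of 5 libraries. GRIN2D was 1.03 higher against the mean of log levels (SE 0.18, adjusted p = 4e-05), but against the arithmetic mean of the other 3 classes, 21.4 ± 2.49 CPM and driven by OPCs, it was higher in 2 of 5 libraries. The GRIN2D call was lost under 5 of 12 alternatives, among them leaving out the first (0.98) or the third (0.96) 18-month library. Microglia had 1 of 5 called (25.2% of genes, 14.1% lower), GRIN2D at -2.61 (SE 0.23, adjusted p = 6.1e-10). Oligodendrocytes also had 1 of 5 (19.8% of genes, 11.7% lower), GRIN2D at -1.49 (SE 0.17, adjusted p = 6.4e-08). GRIN2A and GRIN3A passed in none of these 3 classes, with log2 differences between -0.61 and 0.18.

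Genes whose class means followed each subunit most closely were found by Pearson's r of log2(CPM + 1) over 16 classes, which share libraries and depth. These r values are a description over classes, with no test. GRIN1 was most like ACTL6B (r = 0.98), which encodes a subunit of the neuronal chromatin remodelling complex, followed by PAK6 and PTPRN. GRIN2A was most like MTUS2 (0.93), RBFOX3, the gene of the neuronal marker NeuN, and SVOP. GRIN2B was most like RPS6KA6 (0.98), CELF5 and the vesicle priming gene UNC13A. GRIN2C followed STON2 (0.88), SLC39A12 and SDS, and all 3 were highest in astrocytes. GRIN2D was most like OBSL1 (0.96), CDADC1 and the adenylyl cyclase gene ADCY8, and GRIN3A was most like TRPC7 (0.84), the kainate receptor gene GRIK1 and TPGS2. UNC13A, STON2 and TPGS2 were among the genes used for clustering. Between the subunits, r was highest for GRIN1 with GRIN2B (0.94) and lowest for GRIN2A with GRIN2C (-0.55).

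Other genes of NMDA receptor signalling were taken from lists of 16 postsynaptic scaffolds, 16 kinases, phosphatases and effectors, and 11 genes of co-agonist supply and removal. Between excitatory and inhibitory neurons, 14.2% of all genes were called. Of 16 tested scaffolds, 2 were called higher and 1 lower (list median 0.30, all genes 0.00). HOMER1, which links metabotropic receptors to the NMDA receptor scaffold, was 2.18 log2 units higher (SE 0.21), DLG1 1.13 higher and HOMER3 -1.34. Of the kinases and effectors, 3 of 16 were higher and 2 lower (list median 0.38). CAMK2A, the calcium/calmodulin kinase that docks on GluN2B, was 1.49 higher (SE 0.049) and KALRN, a spine GTPase regulator, 1.46 higher. NOS1, the nitric oxide synthase tethered to the same scaffold, was -6.27 (SE 0.22), lower in excitatory neurons. None of the 9 co-agonist genes tested was called (list median -0.21).

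In claustrum-like against other excitatory neurons, 7.01% of all genes were called and 3.18% called higher. Of the co-agonist genes, 2 of 9 were called higher and 0 lower (list median 0.38, all genes 0.00). These were PHGDH, the first enzyme of serine synthesis, at 1.72 (SE 0.30, adjusted p = 0.00096, edgeR), and GLDC, which breaks down glycine, at 1.22 (SE 0.11, adjusted p = 2.1e-05). HOMER1 was 1.15 higher (1 of 16 scaffolds called) and NOS1 was -1.53 (1 of 16 kinases and effectors called). Both counts were near the share of all genes called. Between MGE-like and CGE-like interneurons RASGRF2 (3.34), an exchange factor that couples NMDA receptors to Ras, and NOS1 (1.75) were the 2 called kinases and effectors, and DLGAP2 (1.15) the 1 called scaffold. Those were 2 of 16 and 1 of 15 tested, against 4.9% of all genes.

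Striatal projection-like neurons had 5 of 16 kinases and effectors higher than in excitatory neurons and 3 lower (list median -0.09, all genes 0.02). Of all genes, 20.2% were called in this comparison and 11.7% called lower. PTPN5, the striatal-enriched phosphatase STEP that acts on GluN2B, was 2.27 higher and the calcineurin subunit gene PPP3CA 2.13 higher. CAMK2G was -4.97 and CAMK2D -3.33, both lower. Of 16 scaffolds, 0 were called higher and 5 lower, led by SHANK1 at -3.35. DAO, which degrades D-serine, was the 1 co-agonist gene called higher, at 1.34, and 3 of 9 were lower, with GLDC at -2.25. NOS1 separated D2-like from D1-like neurons, at -5.25 (SE 0.19) in D1-like minus D2-like, and RASGRF2 was 1.63.

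In astrocytes, 19.1% of all genes were called against other glia and 10.9% called higher. Of the co-agonist genes, 5 of 9 were called higher and 1 lower (list median 1.25, all genes -0.06). They included SLC7A10, the Asc-1 transporter of D-serine and glycine (4.77), the neutral amino acid transporter gene SLC1A4 (2.25), GLDC (2.27) and the serine synthesis genes PHGDH (1.37) and PSAT1 (1.25). SLC6A9, which encodes the glycine transporter GlyT1, was -2.14 in astrocytes and 3.72 in oligodendrocytes against their other glia. In OPCs, where GRIN2B and GRIN2D were called higher, 5 of 16 scaffolds were called higher and 2 lower (list median 0.63), with DLGAP1 at 3.12. Of all genes, 16.7% were called in OPCs and 9.6% called higher. The glial examples of this paragraph were chosen after their values were seen.

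The 2 animals were compared within 8 classes, giving 44 tests of subunit genes. Here calls needed only the adjusted p under 0.05 and no minimum fold. In striatal projection-like neurons, the class with GRIN3A at 11.6 and 19.4 CPM at 17 months and 3.74, 6.07 and 4.40 CPM at 18 months, 2 of 6 were called, against 11.3% of genes. GRIN3A was 1.54 log2 units higher in the 17-month libraries (SE 0.29, adjusted p = 0.0037, edgeR), and GRIN2C was -0.95 (SE 0.19, adjusted p = 0.0043), with 12.01 and 13.3 CPM in the 17-month and 22.4, 24.3 and 23.2 CPM in the 18-month libraries. Neither gene overlapped between the animals. Leaving out the first 17-month library ended the GRIN2C call (adjusted p = 0.059) and leaving out the second ended the GRIN3A call (adjusted p = 0.093). The 17-month libraries held 180 and 123 of these nuclei, and the make-up of the class differed between the animals. The D2-like cluster 1 gave 18 and 15 of them and the D1-like cluster 2 gave 22 and 18. Of the 297, 774 and 489 nuclei at 18 months, cluster 1 gave 89, 219 and 137 and cluster 2 gave 62, 150 and 124. Striatal clusters 5 and 6 came mostly from the second 18-month library, with 81 of 123 and 81 of 114 nuclei. Within the unnamed striatal clusters 3 and 4, which had 20 or more nuclei in every library, GRIN3A overlapped between the animals, at 10.8 and 4.41 CPM against 3.71, 5.20 and 4.73 CPM in cluster 3 and 7.03 and 2.08 CPM against 3.66, 4.83 and 2.28 CPM in cluster 4. GRIN2C overlapped in cluster 3 and not in cluster 4, where it was 11.3 and 12.5 CPM at 17 months and 21.9, 29.8 and 22.8 CPM at 18 months. In the whole striatal class, the 6 excitatory markers summed to 804 and 721 CPM at 17 months and 780.4, 764 and 746 CPM at 18 months. Most of this sum was NRGN, CHN1 and SV2B. NRGN was higher there (246 to 305 CPM) than in excitatory neurons (83.7 CPM), so the sum cannot measure excitatory RNA. SLC17A7 stood at 15.6 and 7.27 CPM at 17 months and 10.8, 7.66 and 8.93 CPM at 18 months, and none of the 6 was at 0. The part of excitatory RNA in the GRIN3A difference was not tested.

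In the other 7 classes 0 subunit genes were called by edgeR, although DESeq2 called 1 each in claustrum-like neurons and oligodendrocytes. The 42 tests not called, of which 12 had an unadjusted p under 0.05, had log2 differences from -0.64 to 1.07 and a smallest adjusted p of 0.055 (edgeR). The background there was 5.29% of genes called in astrocytes, 6.24% in microglia, 5.27% in OPCs, 7.3% in inhibitory, 11.8% in claustrum-like and 13.4% in all excitatory neurons and 14.0% in oligodendrocytes. In 18 of the 44 the libraries of the animals did not overlap. Oligodendrocytes held 4 of these (47.1% of all genes), excitatory, claustrum-like and striatal neurons 3 each (49.8%, 48.6% and 46.8%), microglia 2 (37.6%), and astrocytes, inhibitory neurons and OPCs 1 each (33.7%, 37.5% and 33.9%). The GRIN2A to GRIN2B ratio of claustrum-like neurons was 0.20 log2 units higher in the 17-month libraries, and that of astrocytes 1.29 higher. Over the 6 classes compared the exact permutation p-values were 0.1 to 0.4, where 0.1 is the smallest that 2 against 3 libraries can give.

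In fits with animal, class and their interaction, edgeR called 1 of 6 subunit genes, GRIN3A, for striatal minus excitatory neurons (1.79% of genes called) and for striatal minus inhibitory neurons (1.55%). The striatal deficit in GRIN3A was smaller in the 17-month animal. The values per library given here are differences of log2(CPM + 1), without the TMM scaling of the fit. The added 1 shrinks them most where levels are low. Striatal minus excitatory was -4.19 and -3.40 log2 units at 17 months and -5.46, -4.78 and -5.45 at 18 months. The fitted interaction was 1.50 (SE 0.30, adjusted p = 0.037, edgeR). Striatal minus inhibitory was -4.94 and -4.01 at 17 months and -6.35, -5.72 and -6.10 at 18 months, an interaction of 1.59 (SE 0.29, adjusted p = 0.015). Both calls ended without the second 17-month library (adjusted p = 0.4 and 0.195). For claustrum-like against other excitatory, excitatory against inhibitory and MGE-like against CGE-like neurons edgeR called 0, with 0.368%, 0.708% and 0.0723% of genes called. There 2, 2 and 1 subunit genes had an unadjusted p under 0.05, and DESeq2 called 0.

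Of the related genes, GRIN3B had at most 3 UMIs in any class and GRINA, a glutamate-binding protein gene that is not a channel subunit, at most 20, so neither could be described further.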

How the data were processed

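Frozen claustrum nuclei were profiled in 5 libraries, 2 from the 17-month and 3 from the 18-month animal. The deposited matrices hold whole-number UMI counts per gene and nucleus, written by Cell Ranger 5.0.1 per the file headers. The submitters' processing notes name CASAVA 1.8, Cell Ranger, Seurat and the builds Mmul_10 and mm10, with no role given for each. Symbols came from the files for 16522 of 21761 features and from a RefSeq gene table for 645.

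From these counts, 359 nuclei with under 500 genes and 2555 likely doublets were removed, the latter as the highest scrublet scores at 0.8% per 1000 nuclei, because the automatic threshold called only 0.179% to 3.01%. The limit of 5% mitochondrial UMIs removed 0 nuclei. Counts were scaled to 10000 UMIs per nucleus, log-transformed and clustered with scanpy 1.11.5 and leidenalg 0.10.2 on 1 of 2 random sets of the genes. Each run took 2000 variable genes, 30 principal components and 15 neighbours, at resolution 1.0 for broad classes and 0.6 within neurons. Over all runs 4427 genes were used. The subunits, listed genes and markers were left out of the clustering. Clusters were named from marker genes, and the naming limits were revised after clusters had been seen. Counts were then summed per library and class where at least 20 nuclei were present.

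Sums were compared in R 4.3.3 by the quasi-likelihood test of edgeR 4.0.16, after filterByExpr and TMM scaling and with robust fitting, and with DESeq2 1.42.0 as an alternative. The edgeR fit was tested on simulated counts for excitatory minus inhibitory neurons, for the animals in excitatory neurons and for the glial classes. The DESeq2 fit was not tested in this way. Ratios were tested by exact permutation. Shares of nuclei were taken after thinning to 1000 UMIs, with 2000 as an alternative. Named genes were the 6 subunits, up to 3 called genes in each direction per signalling list and comparison, and the 3 genes most like each subunit among genes with at least 10 CPM in a class. The text gives a selection of these. Members and lists were chosen with earlier results of these data known. UMI totals limit precision to counting error at best.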

Additional observations from a re-analysis of the deposited data

Results flagged for a closer look

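The difference in GRIN3A between striatal projection-like neurons and the other neurons was not the same in the 2 animals. In a model with animal, class and their interaction, the striatal minus excitatory difference was less negative in the 17-month animal by 1.50 log2 units (SE 0.30, adjusted p = 0.037, edgeR), where 1.79% of all genes were called. The striatal minus inhibitory difference was less negative there by 1.59 (SE 0.29, adjusted p = 0.0149), where 1.55% of genes were called. Both rest on the striatal levels of 11.6 and 19.4 CPM at 17 months and 3.74, 6.07 and 4.40 CPM at 18 months, and GRIN3A was the 1 subunit gene of 6 called in each. The striatal clusters had unequal shares in the 2 animals, and within striatal clusters 3 and 4 the GRIN3A levels of the animals overlapped. Against excitatory neurons the call was lost without either 17-month library (adjusted p = 0.121 and 0.4), without the first 18-month library (0.058) and without the third (0.072). Against inhibitory neurons it was lost without the second 17-month library (0.195). Each age is 1 animal, so animal and age cannot be told apart. In the interactions of the other 3 comparisons edgeR called 0 subunit genes. The genes called there were 0.368% for claustrum-like against other excitatory neurons, 0.708% for excitatory against inhibitory neurons and 0.0723% for MGE-like against CGE-like interneurons. Unadjusted p-values under 0.05 were found for 2, 2 and 1 subunit genes, and DESeq2 called 0.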

How the results depend on the processing

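The alternatives covered normalization, filter, test, block, doublets, gene count per nucleus, clustering genes and each library left out. Over the class comparisons, 910 member values kept direction and side of the threshold, 5 lost a call (all GRIN2D in astrocytes), 1 gained one and 27 changed sign. No called subunit difference between classes changed sign. The causes of the changes below were not tested.

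Sign changes were as follows. With no filter on low counts, GRIN1 was -0.025 in LAMP5/SNCG-like interneurons, GRIN2A 0.0075 in oligodendrocytes and GRIN2A -0.0252 in striatal minus excitatory neurons. With doublets kept, GRIN1 was -0.0128 in LAMP5/SNCG-like interneurons and GRIN2D -0.0899 in MGE-like minus CGE-like. With clustering on the genes not drawn, GRIN2D was -0.0855 there, and GRIN2B was -0.0221 in PVALB-like, GRIN2A 0.0033 in SST-like and GRIN2A -0.38 in VIP-like interneurons. PVALB-like GRIN2B was -0.0033 with RLE factors, -0.0038 with DESeq2 and -0.0021 with at least 1000 genes per nucleus. Without inhibitory cluster 3, MGE-like minus CGE-like GRIN3A was -0.13 and 1 subunit gene was called. Against layer-named clusters, claustrum-like GRIN2A, GRIN2B and GRIN2D were 0.12, 0.17 and -0.12. With 1 library left out, the ranges that crossed 0 were -0.26 to 0.0418 for astrocyte GRIN2B, -0.0945 to 0.14 for LAMP5/SNCG-like GRIN1, -0.0174 to 0.0267 for MGE-like minus CGE-like GRIN2D, -0.0156 to 0.21 for microglial GRIN2A, -0.15 to 0.0287 for oligodendrocyte GRIN2A, -0.0399 to 0.0245 for PVALB-like GRIN2B and -0.0233 to 0.0417 for striatal minus excitatory GRIN2A.

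Counts of called subunit genes moved in astrocytes against other glia from 2 to 1 with doublets kept or clustering on the genes not drawn, and to 1 to 3 with a library left out. Between animals, the count of 0 became 1 with no filter in astrocytes and excitatory neurons and 2 in microglia, and 1 with DESeq2 in claustrum-like neurons and oligodendrocytes. With a library left out it ranged from 0 to 2 in astrocytes, claustrum-like and excitatory neurons, 0 to 3 in microglia and oligodendrocytes, 0 to 1 in OPCs and 1 to 2 in striatal neurons. For the striatal interactions it ranged from 0 to 1, and was 2 against inhibitory neurons with no filter.

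Counts over all genes also moved. Between animals, no filter gave 724 genes in astrocytes (467 in the reported fit) and 1236 in microglia (667). DESeq2 gave 157 in astrocytes, 305 in inhibitory neurons (953), 237 in microglia, 186 in OPCs (561) and 816 in striatal neurons (1370). Replicate numbers are shared by different animals, and same-numbered libraries correlated at -0.35 to 0.18, so the numbers do not pair the libraries. With the number as a replicate block, 734 genes were called in claustrum-like neurons (1763), 1141 in excitatory neurons (2103), 130 in microglia, 817 in oligodendrocytes (1849) and 352 in OPCs. With a library left out the ranges were 265 to 556 in astrocytes, 220 to 1905 in claustrum-like, 214 to 2615 in excitatory and 319 to 840 in inhibitory neurons, 272 to 1236 in microglia, 984 to 2192 in oligodendrocytes, 316 to 608 in OPCs and 539 to 1305 in striatal neurons. D1-like minus D2-like fell from 80 to 50 with DESeq2, and VIP-like rose from 389 to 589 with no filter. With no filter the interactions gave 104 genes for claustrum-like (38), 143 for excitatory minus inhibitory (75), 33 for MGE-like minus CGE-like (6), 290 for striatal minus excitatory (191) and 342 for striatal minus inhibitory (142). DESeq2 gave 49, 1 and 58 for excitatory minus inhibitory, MGE-like minus CGE-like and striatal minus inhibitory. With a library left out the ranges were 5 to 85, 14 to 109, 0 to 10, 8 to 257 and 41 to 214, in the order of the 5 interactions.

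Of 375 alternative values for subunits not called between animals, 28 changed sign and 21 became called. All 69 alternative ratio values kept their direction, and none could pass 0.05 with so few libraries. With 2000 UMIs per nucleus, 82 of 96 shares moved by over 1 SD. D1-like neurons were not found with doublets kept, so that comparison has no such value. Subunits under the count filter, such as GRIN2D in striatal subtypes and GRIN1 in glia, were not tested, and 20 nuclei per sum is the depth limit of the rare classes. The medians of 2976 to 3485 UMIs limit detection per nucleus.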

Other observations

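GRIN2A in endothelial cells differed between the animals without overlap. The 587 endothelial nuclei had 110.4 and 59.4 CPM of GRIN2A at 17 months, against 230.0, 281 and 235 CPM at 18 months. The log2 ratio of GRIN2A to GRIN2B was -0.47 and -0.72 at 17 months, from 299 and 72 nuclei, and 1.82, 1.44 and 2.34 at 18 months, from 101, 61 and 54 nuclei. The sums held 511 UMIs of GRIN2A and 354 of GRIN2B over all libraries. The class joins 2 clusters of unlike depth, cluster 17 with 427 nuclei, 57.8% of them from 1 library, and cluster 22 with 160 nuclei, at most 32.5% from 1 library. The part of this mix in the difference was not tested. The difference itself was not tested either, and endothelial cells were in none of the comparisons between animals. The share of all genes without overlap was not counted in this class. In the classes where it was counted, it ran from 33.7% in astrocytes to 49.8% in excitatory neurons.

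Inhibitory cluster 10, in the SST-like class, had 1649 CPM of GRIN2B beside its 1228 CPM of GRIN3A. The unnamed inhibitory cluster 9 had 128 CPM of GRIN2A and a GRIN2A to GRIN2B ratio of -3.63, next to the PVALB-like interneurons.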
